A study of Mus musculus with 6 samples.

Results

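The genes described here are 9 enzymes of bile acid synthesis and conjugation (Cyp7a1, Cyp8b1, Cyp27a1, Cyp7b1, Hsd3b7, Akr1d1, Akr1c6, Slc27a5 and Baat) and Klb, the co-receptor through which the intestine signals back to that pathway. They were taken by symbol from a table of counts for 54232 genes, where each of the 10 symbols named 1 row, and 9 of the 10 had enough counts to be tested. The counts come from RNA sequencing of whole liver. The knockout group held 3 Nogo-/- mice and the wild-type group 3 WT littermates, all aged 8 weeks and on normal chow. Nogo is the protein of Rtn4, a reticulon of the endoplasmic reticulum, and the study's title asks how its loss bears on insulin signalling. The labels state neither the allele nor the part of the gene removed, and each library is named here by its genotype and the number in its label.

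Bile acids are made from cholesterol in hepatocytes by 2 routes. The classic route starts with Cyp7a1, the rate-limiting hydroxylase, and Cyp8b1 then adds the hydroxyl group that makes cholic acid. The alternative route starts with the mitochondrial side-chain hydroxylase Cyp27a1 and goes on through Cyp7b1. Both routes share the steroid ring enzymes, and at the end Slc27a5 activates the bile acid with coenzyme A and Baat joins it to taurine or glycine. Fgf15 from the ileum binds hepatic Fgfr4 together with Klb and lowers Cyp7a1 expression, and Fgf21 also needs Klb.

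Library totals ran from 17654412 to 18118811 counts in knockout and from 17568223 to 20902369 counts in wild type. Rtn4 checked the labels, with 4.63, 8.22 and 4.69 CPM (counts scaled to library size by TMM) in knockout 1, 2 and 4, against 40.5, 52.8 and 56.0 CPM in wild type 2, 4 and 11. Its log2 fold change was −3.08 ± 0.26 (SE; edgeR adjusted p = 0.00101), and 18.4% of its exon bases overlap other annotated genes. Mitochondrially encoded genes took 28.6%, 19.7% and 11.8% of the counts in knockout 1, 2 and 4, and 6.17% to 6.90% in wild type. Liver tissue was also checked by its markers. Of 6 hepatocyte-defining genes, Cps1 fell and 5 did not pass. All 6 summed to 73211 to 105040 CPM in knockout and 82237 to 99281 CPM in wild type. Most of that sum was Alb (49072.5 to 70029.7 CPM in knockout, 59163.3 to 70801.7 CPM in wild type). At an unadjusted p under 0.05 in edgeR, Apoa1 and Serpina1a were higher (log2 fold changes 0.61 and 0.51) and Cps1 was lower (−1.52). Markers of white blood cells were higher in knockout, with rises in 4 of 5 tested T and NK cell genes (8.30 to 17.99 CPM summed over the list in knockout, 2.93 to 4.23 CPM in wild type), 4 of 6 B cell genes (17.4 to 29.4 CPM in knockout, 8.41 to 11.8 CPM in wild type) and 3 of 3 tested neutrophil genes (6.80 to 17.2 CPM in knockout, 2.61 to 3.39 CPM in wild type). Of 7 sinusoidal endothelial genes 3 fell (114 to 193 CPM in knockout, 170 to 221 CPM in wild type), and of 5 tested cholangiocyte genes 1 fell (32.0 to 50.9 CPM in knockout, 41.7 to 61.1 CPM in wild type). Among 5 tested erythroid genes Hba-a2 rose and Alas2 fell (362 to 836 CPM in knockout, 300.3 to 505 CPM in wild type). None of 8 Kupffer cell genes (170 to 378 CPM in knockout, 217 to 347 CPM in wild type) and 7 stellate cell genes (193 to 284 CPM in knockout, 131 to 230 CPM in wild type) passed in edgeR (0 and 2 at an unadjusted p under 0.05). No marker was at 0 in all libraries. The part of these differences in the results below was not tested, and in bulk tissue fewer cells of a type and less RNA per cell cannot be told apart.

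Klb and Akr1c6 fell in knockout livers, and no member rose. Of the 9 tested members, 2 fell and 0 rose at an edgeR adjusted p under 0.05. Over all 13304 tested genes 17.0% were called, 8.29% lower and 8.76% higher, so 2 of 9 is near the background and is no result about the group. With all 6 libraries no member was higher at an unadjusted p under 0.05 in edgeR, or at an adjusted p under 0.05 in DESeq2 and limma-voom, which called 10.3% and 8.63% of all genes higher. In 4 members (Cyp7a1, Akr1c6, Slc27a5 and Klb) the genotypes were fully separated, each knockout library lying below each wild-type one, against 38.9% of all tested genes in either direction and 19.2% in the lower direction. The median log2 fold change was −0.53 over the 9 members and 0.01 over all tested genes, and 8 of the 9 were negative, against 6535 of 13304.

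**Figure D1:**
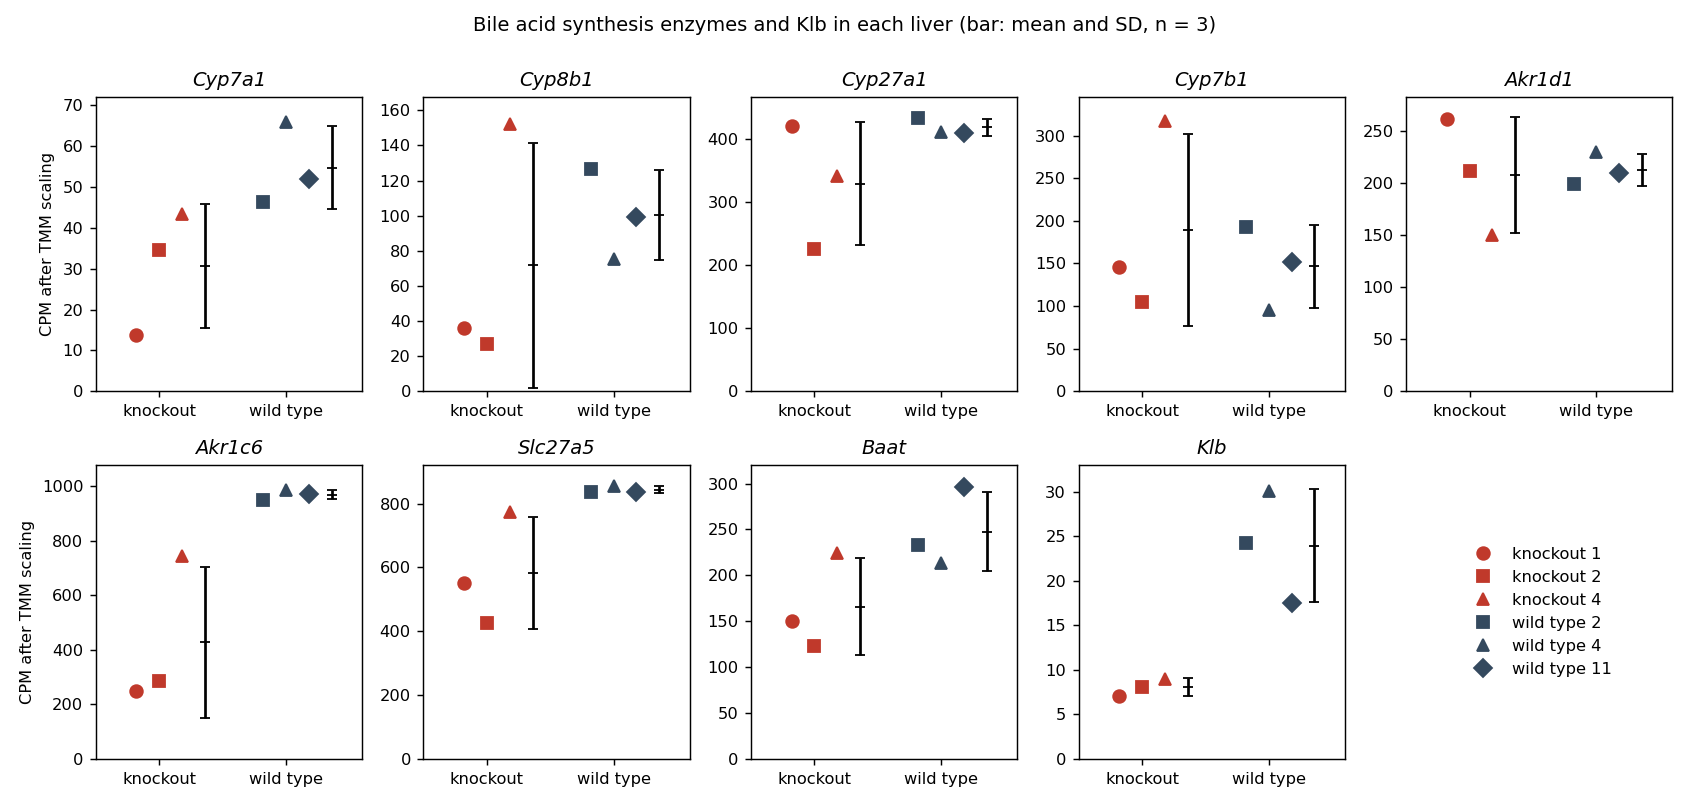
CPM after TMM scaling of the 9 tested genes in each library (vertical axes, starting at 0), knockout in red left of wild type in blue, with the mean and SD of 3 libraries as a black bar. Klb lies at 7.02 to 9.03 CPM in knockout and 17.5 to 30.1 CPM in wild type, while knockout 4 lies above the wild-type range for Cyp8b1, inside it for Baat and just below it for Slc27a5.

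Klb encodes beta-Klotho, the membrane protein that lets FGF receptors bind Fgf15 and Fgf21. The stretch before its annotated start is shown beside those of Akr1c6, the other member that fell, and Cyp8b1, the tested member with the widest relative spread among knockout livers. Sequences are those of RefSeq on GRCm38.p6 (mm10), cut where the GENCODE M21 gene begins. They lie at chr5:65348161-65348313 (plus strand) for Klb, chr13:4434093-4434305 (plus strand) for Akr1c6 and chr9:121916306-121916555 (minus strand) for Cyp8b1. Capitals mark the word TATAAA, which is the core of a TATA box, wherever it lies. Whether a marked word acts as a TATA box was not tested.
Klb: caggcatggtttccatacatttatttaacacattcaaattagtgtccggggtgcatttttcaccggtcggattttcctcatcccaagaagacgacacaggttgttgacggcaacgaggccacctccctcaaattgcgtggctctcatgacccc
Akr1c6: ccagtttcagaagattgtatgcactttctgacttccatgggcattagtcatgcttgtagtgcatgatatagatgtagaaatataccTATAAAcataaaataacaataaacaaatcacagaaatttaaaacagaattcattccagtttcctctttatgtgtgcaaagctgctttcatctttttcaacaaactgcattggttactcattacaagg
Cyp8b1: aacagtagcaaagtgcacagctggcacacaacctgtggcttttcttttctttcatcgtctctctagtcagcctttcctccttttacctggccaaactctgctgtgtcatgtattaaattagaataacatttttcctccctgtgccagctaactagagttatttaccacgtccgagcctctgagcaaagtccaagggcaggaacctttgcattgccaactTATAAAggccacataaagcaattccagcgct

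RefSeq promoters were at hand for 6 members, Klb, Akr1c6, Akr1d1, Cyp8b1, Cyp27a1 and Hsd3b7. The 250 bases before the RefSeq start were searched on both strands. TATAAA was found in Cyp8b1, beginning 31 bases before the start, and in Akr1c6, beginning 164 bases before it, and in 12.4% of 32851 RefSeq promoters. AAGGTCA, the extended half-site that Nr5a2 (LRH-1) binds, was in none of the 6 windows and in 4.08% of all promoters. Only exact words were searched, so variants of that half-site were not counted. The shorter AGGTCA, which is contained in it, was in the Akr1d1 window alone, at 2 places, and in 14.0% of all promoters.

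Klb (ENSMUSG00000029195, chromosome 5 from 65348314 to 65384007, plus strand, mm10, protein coding) had 106, 150 and 150 counts in knockout 1, 2 and 4, against 512, 565 and 376 counts in wild type 2, 4 and 11. Scaled, these were 7.02, 8.05 and 9.03 CPM in knockout and 24.3, 30.1 and 17.5 CPM in wild type. The highest knockout library was below the lowest wild-type library. Klb averaged 8.03 ± 1.003 CPM in knockout and 24.0 ± 6.34 CPM in wild type (SD, n = 3 each), so knockout stood at 33.6% of wild type. The log2 fold change was −1.57 ± 0.23 (SE; 95% interval −2.09 to −1.06; edgeR adjusted p = 0.00502). Klb passed in each of the 6 fits that left out 1 library, at −1.77 to −1.39 with adjusted p-values up to 0.0276. Knockout 4 alone, the knockout library with the lowest mitochondrial share, gave −1.41 ± 0.35 (adjusted p = 0.128). Fitted together with the mitochondrial share, Klb was at −1.27 ± 0.39 (adjusted p = 0.464). Each knockout library had a higher share than each wild-type one, so that fit cannot tell share and genotype apart.

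Of the 5 tested FGF receptor and ligand genes around Klb, 1 rose and 0 fell (20.0% called, near the 17.0% of all tested genes). Fgfr4, the main hepatic receptor for Fgf15, had 26.3, 26.3 and 29.4 CPM in knockout and 28.4, 32.2 and 25.4 CPM in wild type (−0.07 ± 0.17; 95% interval −0.44 to 0.30; adjusted p = 0.803). Groups overlapped in Fgfr4, and the interval does not reach the change of Klb. Fgfr3, another FGF receptor, rose, with 46.3, 36.2 and 30.6 CPM in knockout, against 20.2, 20.4 and 17.2 CPM in wild type (0.97 ± 0.20, adjusted p = 0.012), and 13.9% of its exon bases overlap other genes. Every knockout value of Fgfr3 lay above the wild-type values. Fgfr1 was at 0.63 ± 0.22 (adjusted p = 0.0719). Fgf21, a hepatic stress hormone, had 2.19, 3.60 and 1.87 CPM in knockout and 0.855, 1.76 and 0.418 CPM in wild type (1.35 ± 0.50, adjusted p = 0.0859, against 0.0449 in DESeq2 and 0.0179 with no low-count filter). In the fit with no filter, SEs hardly followed the spread of a gene, as given for Cyp7a1 below. Fgf15, which the ileum makes, had no count in any library, and Kl, the paralog of Klb, had at most 2 counts.

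Cyp7a1 (ENSMUSG00000028240, chromosome 4 from 6265612 to 6275633, minus strand) opens the classic route. In knockout 1, 2 and 4 it had 13.8, 34.5 and 43.4 CPM, and in wild type 2, 4 and 11 it had 46.3, 65.9 and 51.9 CPM. All knockout libraries lay below all wild-type libraries, but knockout 4 and wild type 2 nearly met. Its mean was 30.6 ± 15.2 CPM in knockout and 54.7 ± 10.1 CPM in wild type (SD, n = 3 each), and its log2 fold change was −0.84 ± 0.34 (95% interval −1.59 to −0.08; edgeR adjusted p = 0.112). Without knockout 4 the value was −1.18 ± 0.34 and passed (adjusted p = 0.0295), and without knockout 1 it was −0.50. It also passed in edgeR with no low-count filter (−0.89 ± 0.22, adjusted p = 0.000805). That fit gave the 9 tested members SEs of 0.22 to 0.23, and 0.22 even for Cyp8b1, against 0.53 in the main fit. Its p-values thus hardly follow the spread of a gene between livers. Fitting the mitochondrial share alongside genotype turned the sign of Cyp7a1 (0.37 ± 0.33, adjusted p = 0.767), but share and genotype cannot be told apart there.

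Cyp8b1 (ENSMUSG00000050445, chromosome 9 from 121914356 to 121916305, minus strand) decides how much cholic acid is made. Knockout 1, 2 and 4 had 36.2, 26.8 and 152 CPM, against 127, 75.1 and 99.1 CPM in wild type 2, 4 and 11. Knockout 1 and 2 lay below every wild-type library and knockout 4 above every one. With means of 71.6 ± 69.7 CPM in knockout and 100.3 ± 25.8 CPM in wild type (SD, n = 3 each), the log2 fold change was −0.49 ± 0.53 (95% interval −1.66 to 0.69; adjusted p = 0.551). Without knockout 4 it was −1.69 ± 0.25 (adjusted p = 0.00151). Knockout 4 alone gave 0.60 ± 0.27 (adjusted p = 0.278). The value was −0.17 without knockout 1, −0.09 without knockout 2 and −0.29 without wild type 2.

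With all 6 libraries the main fit called no enzyme of the alternative route, and none of the classic route (Cyp7a1 and Cyp8b1) either. Cyp27a1 (ENSMUSG00000026170, chromosome 1 from 74713574 to 74737892, plus strand) had 420, 227 and 341 CPM in knockout 1, 2 and 4 and 434, 412 and 410 CPM in wild type 2, 4 and 11. Wild-type livers were close together, and knockout 1 lay among them. The log2 fold change of Cyp27a1 was −0.35 ± 0.23 (95% interval −0.85 to 0.16; adjusted p = 0.312). Cyp7b1 (ENSMUSG00000039519, chromosome 3 from 18071950 to 18243338, minus strand) was the one tested member with a positive value, 0.37 ± 0.38 (95% interval −0.48 to 1.21; adjusted p = 0.531). Its levels were 146, 104 and 317 CPM in knockout and 192, 94.98 and 152 CPM in wild type, so only knockout 4 exceeded the wild-type range. Without knockout 4 its value turned to −0.24 ± 0.28 (adjusted p = 0.539). Knockout 4 alone gave 1.11 ± 0.32 for Cyp7b1 (adjusted p = 0.15).

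Levels of the classic enzymes were set against those of the alternative enzymes inside each library, where scaling cancels. The mean log2 level of Cyp7a1 and Cyp8b1 minus that of Cyp27a1 and Cyp7b1 was −3.44, −2.32 and −2.01 in knockout 1, 2 and 4, against −1.91, −1.48 and −1.79 in wild type 2, 4 and 11. These differences of log2(CPM + 0.5) did not overlap between genotypes, but knockout 4 and wild type 2 nearly met. The differences averaged −2.59 ± 0.75 in knockout and −1.73 ± 0.22 in wild type (SD, n = 3 each). The groups were −0.86 apart, but −0.43 without knockout 1. No test was made, since the enzymes were chosen with results known and an order of 3 against 3 libraries cannot pass 0.05. Cyp7a1 over Cyp7b1, as a log2 ratio, was −3.35, −1.58 and −2.85 in knockout and −2.04, −0.52 and −1.54 in wild type, so knockout 2 lay inside the wild-type range. For Cyp8b1 over Cyp7a1 the log2 ratio was 1.35, −0.36 and 1.80 in knockout and 1.44, 0.19 and 0.93 in wild type, with groups that overlapped. These ratios are of CPM and not per length, so only their shifts between libraries can be read.

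Akr1c6, an aldo-keto reductase that acts on keto groups of steroids, was the enzyme with the largest fall. It lies on chromosome 13 from 4434306 to 4457877 (plus strand, ENSMUSG00000021210), and 1.38% of its 50-base words also occur elsewhere, most in Akr1c20. Knockout 1, 2 and 4 had 250.2, 287 and 745 CPM, against 951, 985 and 970 CPM in wild type 2, 4 and 11. Wild-type livers were nearly equal, and each knockout was lower, knockout 4 by the least. Akr1c6 averaged 427 ± 276 CPM in knockout and 969 ± 16.8 CPM in wild type (SD, n = 3 each), and its log2 fold change was −1.18 ± 0.36 (95% interval −1.98 to −0.38; edgeR adjusted p = 0.0490). The call was lost in 5 of the 6 fits that left out 1 library, with adjusted p-values of 0.147 and 0.144 without knockout 1 and 2 and 0.0949, 0.115 and 0.0974 without wild type 2, 4 and 11. Its log2 fold change was −0.91 and −0.96 without knockout 1 and 2, and −1.20, −1.18 and −1.19 without wild type 2, 4 and 11. Without knockout 4 it was −1.86 ± 0.16 (adjusted p = 0.000154), and knockout 4 alone gave −0.38 ± 0.15. Fitted with the mitochondrial share, which cannot be told apart from genotype here, Akr1c6 was at −0.09 ± 0.33 (adjusted p = 0.955).

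Akr1d1 and Hsd3b7, the other ring enzymes, gave no call. Akr1d1, the reductase that bends the steroid ring system (ENSMUSG00000038641, chromosome 6 from 37530173 to 37568815, plus strand), had 261, 212 and 150.0 CPM in knockout and 199, 230 and 210 CPM in wild type. Here knockout 1 was the highest and knockout 4 the lowest library of all 6. Its log2 fold change was −0.04 ± 0.22 (95% interval −0.52 to 0.44; adjusted p = 0.920). Hsd3b7, the dehydrogenase that acts on the ring after the first hydroxylation (ENSMUSG00000042289, chromosome 7 from 127800604 to 127803802, plus strand), had 0, 0 and 2 counts in knockout and 1, 3 and 1 counts in wild type. These are at or under a floor of 3 counts, which is 0.161 to 0.199 CPM in knockout and 0.139 to 0.160 CPM in wild type, so no fold is given and the gene was not tested. Of its 2769 exon bases, 99.2% are also exons of other annotated genes. The protein-coding gene Gm49388 on the same strand covers 62.0% and the transcript 9430064I24Rik on the opposite strand covers 62.4%, and these had 0 to 1 and 0 to 7 counts in the 6 libraries. How reads in shared exons were counted is not given in the sources used here, so these counts do not give the Hsd3b7 level.

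Neither conjugating enzyme passed the test, and both had their lowest levels in knockout 1 and 2. Slc27a5, the bile acyl-CoA ligase (ENSMUSG00000030382, chromosome 7 from 12988346 to 12998192, minus strand), had 551, 425 and 773 CPM in knockout 1, 2 and 4 and 836, 855 and 836 CPM in wild type 2, 4 and 11. No knockout library reached the wild-type range, which was narrow. Its log2 fold change was −0.53 ± 0.23 (95% interval −1.04 to −0.02; edgeR adjusted p = 0.132). Without knockout 4 it was −0.80 ± 0.16 (adjusted p = 0.00688), and with library totals in place of TMM it was −0.72 (adjusted p = 0.0494). That scaling put the median gene at −0.16 and called 11.8% of all genes lower.

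Baat, the amino acid transferase that completes conjugation (ENSMUSG00000039653, chromosome 4 from 49489422 to 49506557, minus strand), had 150.0, 123 and 225 CPM in knockout and 233, 213 and 296 CPM in wild type. Knockout 4 lay inside the wild-type range and the other two below it. The log2 fold change was −0.58 ± 0.24 (95% interval −1.11 to −0.04; adjusted p = 0.122), against −0.87 ± 0.19 without knockout 4 (adjusted p = 0.00865) and −0.63 with no low-count filter (adjusted p = 0.0354). The fit with no filter gave all tested members nearly the same SE, whatever their spread. Baat over Slc27a5, as a log2 ratio within a library, was −1.87, −1.78 and −1.78 in knockout and −1.84, −2.0 and −1.50 in wild type. The 3 knockout ratios lay inside the wild-type range.

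**Figure D2:**
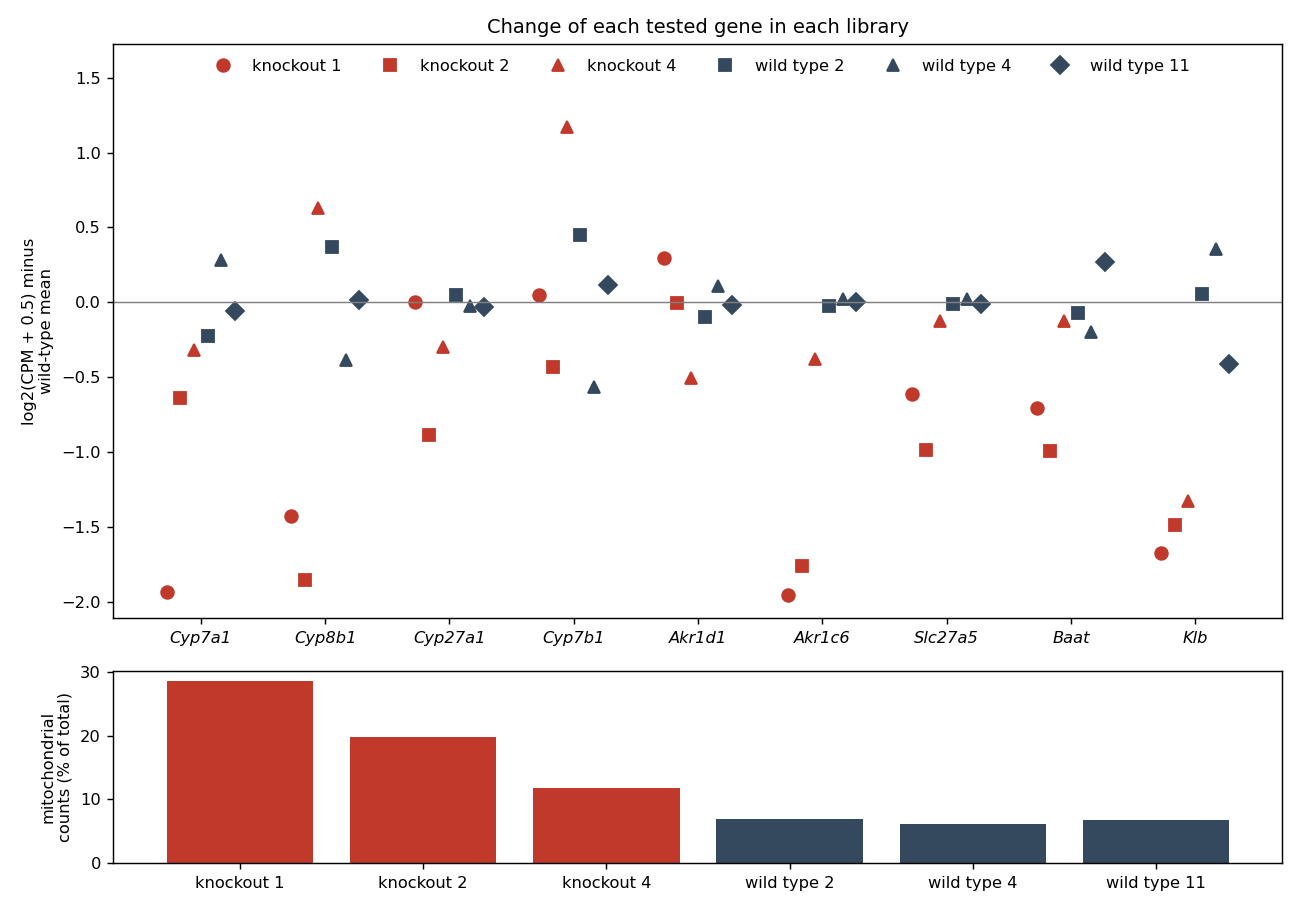
Top, log2(CPM + 0.5) of each tested gene in each library minus the wild-type mean, knockout in red and wild type in blue. Bottom, the share of counts from mitochondrially encoded genes in percent. Akr1c6, Slc27a5 and Baat lie lower in knockout 1 and 2 than in knockout 4, while the 3 knockout values of Klb lie between −1.67 and −1.33.

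In each tested member except Klb, the knockout livers differed among themselves more than the wild-type livers did. Set against the wild-type mean, the members had a median change of −0.71, −0.99 and −0.30 in knockout 1, 2 and 4, and between −0.01 and 0.02 in the wild-type libraries, while the median of all tested genes stayed between −0.01 and 0.02 in all 6. Knockout 4 was the knockout with the value nearest to the wild-type mean for Cyp7a1, Akr1c6, Slc27a5, Baat and Klb, and it lay above that mean for Cyp8b1 and Cyp7b1. In Klb the knockout libraries ran from −1.67 to −1.33 and the wild-type libraries were more spread, from −0.41 to 0.36. Without knockout 4, 6 of the 9 members fell (Akr1c6, Baat, Cyp7a1, Cyp8b1, Klb and Slc27a5), where 29.4% of all tested genes were called and 15.7% fell. Klb was the only member called in the other 5 such fits. These called 5.90% and 7.20% of all genes without knockout 1 and 2, and 6.03%, 4.57% and 12.3% without wild type 2, 4 and 11. Knockout 4 alone against wild type gave 0 called members and called 0.178% of all genes. At an unadjusted p under 0.05, 3 members were lower (Klb, Akr1d1 and Akr1c6) and 1 was higher (Cyp7b1). In that fit 1 knockout library is assumed to vary like the wild-type ones. The fit with the mitochondrial share called 0 members and 0.00% of all genes (2 members and 1146 genes at an unadjusted p under 0.05 in edgeR). Even Rtn4 was not called there (edgeR adjusted p = 0.189), since share and genotype go together in these libraries. With no low-count filter 4 members fell (7.66% of all genes), in a fit that gave the tested members nearly equal SEs. With a filter of 1 CPM in 3 libraries 1 fell (8.57%). A fit with the label number as a block called Klb and Akr1c6 lower (6.88% of all genes), with fold changes set by the libraries numbered 2 and 4 alone.

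**Figure D3:**
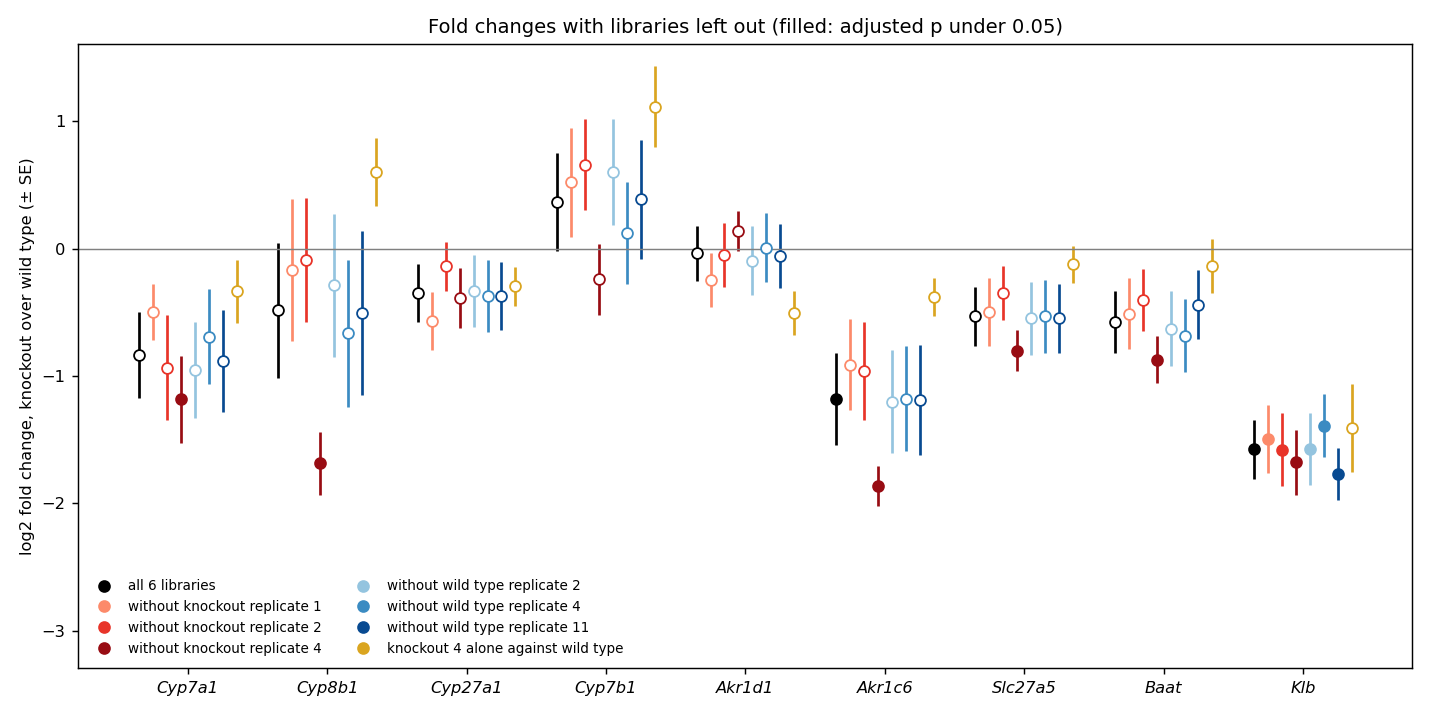
Log2 fold change, knockout over wild type, with its SE for each tested gene in the fit of all 6 libraries, the 6 fits without 1 library, and knockout 4 alone against wild type. Filled points passed an adjusted p under 0.05. Klb is filled in all but the last, and Akr1c6 is filled with all libraries and without knockout 4.

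Per kilobase of exon, the order of levels in wild type ran from Akr1c6 to Klb. Wild-type means were 477 ± 8.26 CPM per kb for Akr1c6, 346 ± 4.49 for Slc27a5, 193 ± 6.18 for Cyp27a1 and 128 ± 22.2 for Baat (SD, n = 3 each). Akr1d1 at 73.7 ± 5.33, Cyp7b1 at 67.6 ± 22.6 and Cyp8b1 at 51.4 ± 13.2 CPM per kb followed, and neighbours among these did not differ beyond their spread. Cyp7a1 had 13.1 ± 2.42 and Klb 5.27 ± 1.39 CPM per kb in wild type, the lowest of the 9. In knockout Slc27a5 had 239 ± 72.3, Akr1c6 210 ± 136 and Cyp27a1 152 ± 44.8 CPM per kb, which overlap within their spread. Cyp7b1 (87.2 ± 52.0), Baat (85.5 ± 27.1), Akr1d1 (71.8 ± 19.3) and Cyp8b1 (36.7 ± 35.8) came next and did not differ beyond theirs. Cyp7a1 (7.33 ± 3.63) and Klb (1.77 ± 0.22 CPM per kb) were again the lowest.

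Genes with the most similar pattern were sought among 6987 genes with a mean of at least 10 CPM, by the root mean square difference of centred log2(CPM + 0.5) over the 6 libraries. For Klb these included Garem1 (0.09) and Usp12 (0.11). Garem1 had 5.36, 7.14 and 8.00 CPM in knockout 1, 2 and 4 and 22.0, 27.1 and 14.0 CPM in wild type 2, 4 and 11. Like Klb, it was highest in wild type 4 and lowest of the wild types in wild type 11. For Cyp7a1 they were Gm6793 (0.18), the ribosomal protein gene Rpl7a (0.19) and Pphln1 (0.20), each lowest in knockout 1. Genes chosen by pattern largely share the order of the libraries through that choice, so these likenesses are no separate result.

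Around the members, 51 other genes of bile acid handling were read, of which 46 were tested. Of these 9 fell and 3 rose, so 26.1% were called, against 17.0% of all tested genes, and their median log2 fold change was −0.17. In the fits that left out 1 library, 2 to 13 fell and 1 to 4 rose. Abcd3, Ppara and Fgfr3 passed in all 6 of those fits. Counts for the single steps are of few genes each and are no result about a step.

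In the peroxisomal shortening of the side chain, 2 of 8 genes fell and 0 rose (25.0% called, against 17.0% of all tested genes). Abcd3, which brings bile acid intermediates into the peroxisome, had 195, 240 and 227 CPM in knockout 1, 2 and 4, against 526, 558 and 462 CPM in wild type 2, 4 and 11 (−1.23 ± 0.18, adjusted p = 0.0052). Its groups were far apart, and knockout 4 was not nearer to wild type than knockout 2. Acox2, the branched-chain oxidase, had 51.6, 54.1 and 94.9 CPM in knockout and 107, 104 and 152 CPM in wild type (−0.86 ± 0.26, adjusted p = 0.0477), and it kept its call in 1 of the 6 fits, the one without knockout 4. The bifunctional enzyme Hsd17b4 was at −0.47 ± 0.17 (adjusted p = 0.0804), the thioesterase Acot8 at −0.60 ± 0.24 (0.105, with 12.3% of its exon bases in other genes) and the racemase Amacr at −0.39 ± 0.21 (0.216). Without knockout 4 these 3 passed in edgeR, at −0.56, −0.81 and −0.65 (adjusted p = 0.0161, 0.0255 and 0.0119).

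Of 5 tested genes for other hydroxylations, 2 fell and 0 rose (40.0% called, against 17.0% of all tested genes). Cyp2c70, which makes the muricholic acids of mice, had 184, 174 and 314 CPM in knockout 1, 2 and 4, against 363, 386 and 472 CPM in wild type 2, 4 and 11 (−0.86 ± 0.25, adjusted p = 0.0395). Cyp39a1, an oxysterol hydroxylase, had 8.28, 10.8 and 17.3 CPM in knockout and 20.7, 31.1 and 20.1 CPM in wild type (−0.98 ± 0.28, adjusted p = 0.040). Both kept the call in 1 of 6 fits, the one without knockout 4, and knockout 4 was the highest knockout in both. Cyp3a11 was at −0.78 ± 0.26 (adjusted p = 0.0629, against 0.0173 in DESeq2, 0.0373 in limma-voom and 0.000921 without knockout 4), Cyp46a1 at 0.68 ± 0.32 (0.159) and Cyp2a12 at 0.38 ± 0.18 (0.164, with 20.1% of its words shared, most with Cyp2a22).

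Among 12 tested transporters 2 fell and 0 rose (16.7% called, near the 17.0% of all tested genes). The sinusoidal uptake carrier Slco1b2 had 555, 573 and 617 CPM in knockout 1, 2 and 4, against 1030, 1079 and 748 CPM in wild type 2, 4 and 11 (−0.71 ± 0.20, adjusted p = 0.0369). It passed without knockout 4 and without wild type 11, and had adjusted p-values up to 0.157 in the other 4 fits. Atp8b1, a phospholipid flippase of the canalicular membrane, was at −0.55 ± 0.17 with an adjusted p just under the threshold of 0.05, and passed in 0 of 6 fits (0.0534 to 0.194). Slc10a1, the sodium-dependent uptake carrier NTCP, had 202, 184 and 576 CPM in knockout and 655, 696 and 542 CPM in wild type (−0.98 ± 0.38, adjusted p = 0.103). Knockout 4 again lay inside the wild-type range, and without it Slc10a1 was at −1.72 and passed (adjusted p = 0.000303). With all libraries Slc10a1 passed in DESeq2 (0.032) and limma-voom (0.0477). It also passed in edgeR with no low-count filter (0.000143), where SEs hardly followed the spread of a gene. With the label number as a block it passed too (0.0379), in a fit where libraries numbered 2 and 4 alone set the fold change. Abcc2 was at −0.56 ± 0.20 (adjusted p = 0.082) and Abcc3 at −0.44 ± 0.18 (0.114).

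Of 16 regulators of the pathway, 3 fell and 2 rose (31.2% called, against 17.0% of all tested genes). Ppara, the fatty acid-sensing receptor, had 24.4, 20.9 and 25.1 CPM in knockout 1, 2 and 4, against 88.5, 75.1 and 45.0 CPM in wild type 2, 4 and 11 (−1.57 ± 0.24, adjusted p = 0.00578). Nr5a2, an activator of Cyp7a1 and Cyp8b1, had 19.5, 33.9 and 26.5 CPM in knockout and 50.2, 46.5 and 42.5 CPM in wild type (−0.80 ± 0.21, adjusted p = 0.0296). Both had groups that did not overlap, and Nr5a2 lost its call without knockout 1, wild type 2 or wild type 4 (adjusted p up to 0.103). Mafg, a repressor of Cyp8b1, rose (0.66 ± 0.18, adjusted p = 0.0335), as did the xenobiotic receptor Nr1i2 (0.60 ± 0.19, adjusted p = 0.0485), and these passed in 2 and 1 of the 6 fits.

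Nr0b2 (SHP), the repressor that the bile acid receptor Nr1h4 (FXR) induces, missed the threshold narrowly in edgeR. It had 59.4, 67.8 and 93.7 CPM in knockout 1, 2 and 4, against 25.6, 12.96 and 51.5 CPM in wild type 2, 4 and 11 (1.29 ± 0.40; 95% interval 0.40 to 2.18; adjusted p = 0.0505). All knockout values exceeded all wild-type values. It passed in DESeq2 (adjusted p = 0.00469) and limma-voom (0.0283), and in edgeR with DESeq2 size factors (0.0484) and with mitochondrial genes left out (0.0456). It also passed in edgeR with no low-count filter (6.42e-07), where SEs hardly followed the spread of a gene. With the label number as a block Nr0b2 was at 2.12 (edgeR adjusted p = 1.74e-05). That value rests on libraries numbered 2 and 4, without wild type 11, the wild type nearest to knockout. Leaving out 1 library gave 0.92 without wild type 4 up to 1.92 without wild type 11, and only the last passed (adjusted p = 0.0176). Nr1h4 itself was at 0.48 ± 0.19 (adjusted p = 0.096). Onecut1 was at −3.20 ± 1.09 (adjusted p = 0.0677), which rested on 46.3 CPM in wild type 4. The other 5 libraries had 1.29 to 2.14 CPM, and without wild type 4 the value was −0.06. Of the Onecut1 exon bases, 52.8% lie in other genes.

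**Figure D4:**
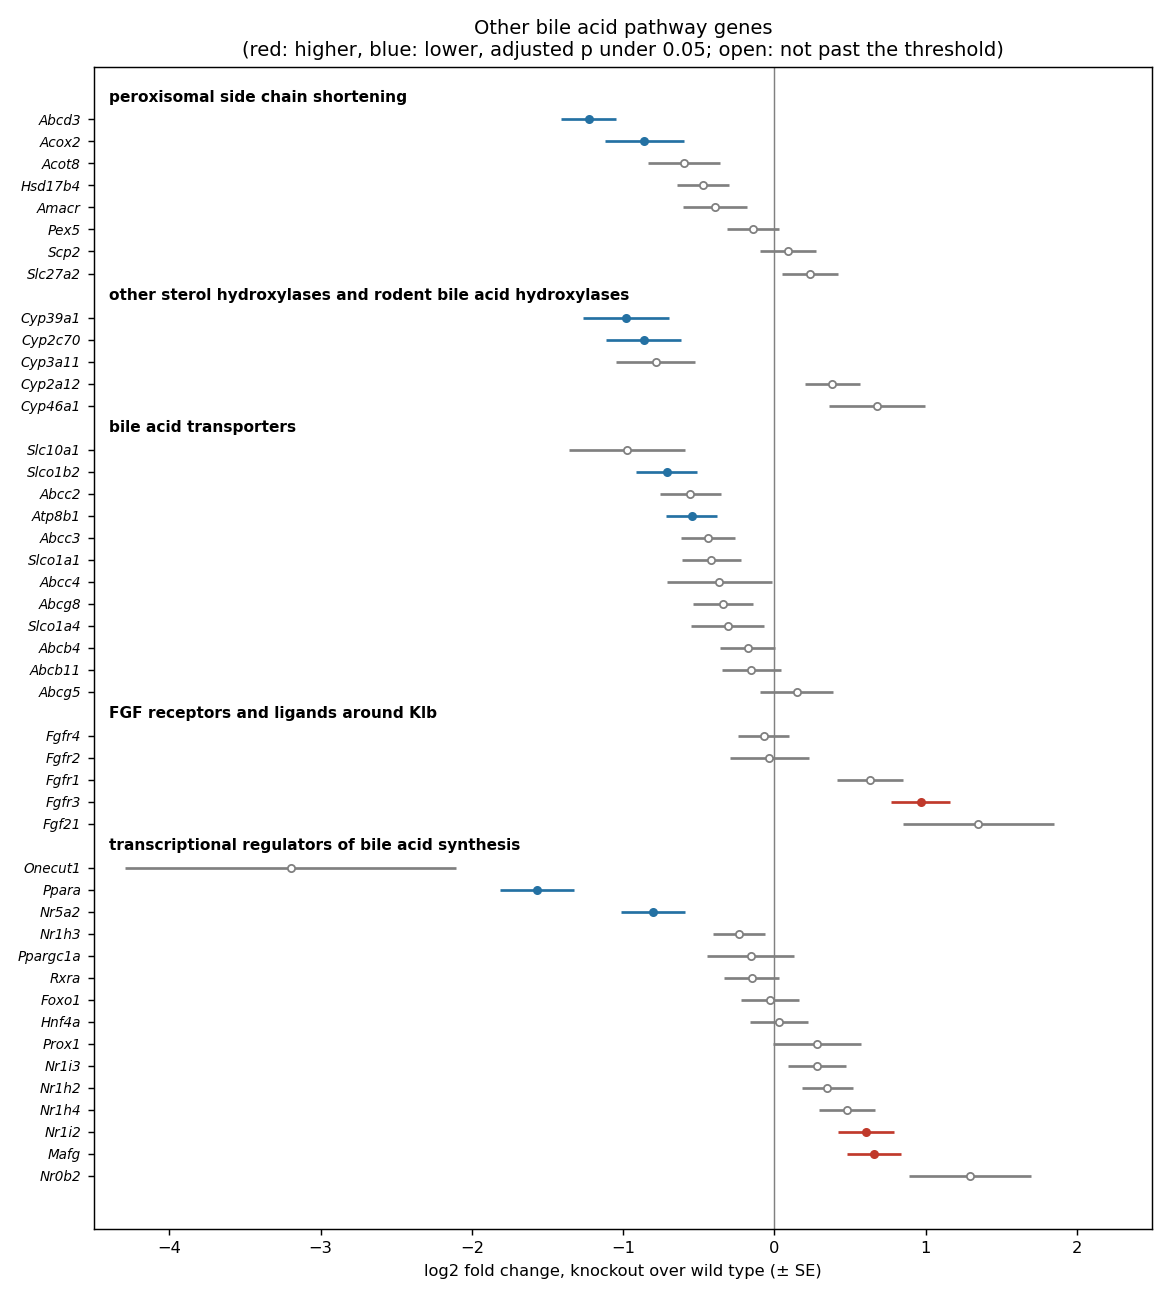
Log2 fold change, knockout over wild type, with its SE for the tested genes around the members except 1, grouped by role (horizontal axis). Filled blue points fell and filled red points rose at an adjusted p under 0.05. Abcd3 (−1.23) and Ppara (−1.57) are the largest called falls, and Fgfr3, Nr1i2 and Mafg are the 3 rises.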

How the data were processed

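The authors deposited raw counts per gene for 6 liver libraries, with 1 column per mouse. RNA was purified on Qiagen columns and libraries were made with a SMARTer kit, per the labels' protocols. Per the submitters' processing notes, reads were placed on mm10. Which aligner, counter and annotation were used, and whether strand was read, is not given in the sources used here. Counts were fitted in R 4.3.3 with edgeR 4.0.16 (quasi-likelihood F test, TMM scaling, filterByExpr, 13304 genes), without covariates. The threshold was 0.05 on two-sided p-values adjusted by Benjamini-Hochberg over all tested genes. SE is the absolute log2 fold change over the square root of F. CPM is after TMM scaling. Alternatives used DESeq2 1.42.0, limma 3.58.1 (voom), other scalings, filters and covariates, and each library left out.

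The labels do not say that replicates are more than separate livers. The p-values set each genotype difference against a spread between livers that the fit estimates partly from other genes. Chi-square values per degree of freedom between libraries of a genotype were 21.0 to 171, where sampling noise gives about 1, so none was counted as a duplicate. Exon lengths, overlaps and 50-base words came from GENCODE M21, which held 54079 of the 54232 identifiers. Named genes are all members, every called gene of the other lists and up to 3 uncalled ones of each by smallest p; 2 genes that these rules name are not reported here. Fgf15, Kl, Gm49388, 9430064I24Rik, Cps1, Alb, Apoa1, Serpina1a, Hba-a2 and Alas2 were named after their values were seen. Members, lists and tests were chosen with earlier results of these data known. On simulated counts for 13304 genes the test recovered 31.0% of 2-fold and 88.0% of 4-fold changes of 100 genes each, and 12 of its 131 calls were false. Far fewer genes were changed there than were called here (2268), which makes the adjusted threshold stricter. The recovery rates therefore do not give the power of the reported fit. Intervals and floors cover counting error or the fitted spread only. Reads carry no molecular identifiers.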

Additional observations from a re-analysis of the deposited data

How the results depend on the processing

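Klb kept its sign in all 16 other fits and its call in 14. No fit called a member higher. Leaving out 1 library gave 630 to 4046 called genes, 1 to 6 members lower and 0 to 0 higher, 2 to 13 other pathway genes lower and 1 to 4 higher, log2 fold changes of −3.41 to −2.95 for Rtn4 and −1.15 to −0.43 for the classic minus alternative level. The counts of members lower were 4 with no low-count filter and 1 with a filter of 1 CPM in 3 libraries, where Akr1c6 had an adjusted p of 0.0503. With no filter the SEs of the tested members were 0.22 to 0.23 whatever their spread, so calls of that fit are weak evidence. Other pathway genes called higher numbered 1 with library totals, 5 with DESeq2, 5 with no low-count filter and 5 with mitochondrial genes left out. Knockout 4 alone called 25 genes, 0 members lower, and 0 other pathway genes lower and 0 higher (7 and 5 at an unadjusted p under 0.05 in edgeR). Fitted with the mitochondrial share, edgeR called 0 genes (1146 unadjusted), 0 members lower (2 unadjusted), and 0 other pathway genes lower and 0 higher (6 and 1 unadjusted), no other tool was run with it, and Rtn4 was at −3.03 (adjusted p = 0.189). Left-out fits gave −0.24 to 0.66 for Cyp7b1 and −0.24 to 0.14 for Akr1d1, with signs that turned without knockout 4 for both and without wild type 4 (0.01) for Akr1d1. Signs also turned for Cyp8b1 (0.60) with knockout 4 alone, and for Cyp7a1 (0.37) and Cyp8b1 (0.84) with the covariate. The cause was not tested. Numbers 2 and 4 occur in both genotypes, and the deviations of same-numbered libraries correlated at −0.05 and 0.06 across genes, so the numbers were not taken to pair them. With the replicate block the counts were 1686 called genes, 2 members lower, and 5 other pathway genes lower and 1 higher. Numbers 1 and 11 occur in only 1 genotype each, so knockout 1 and wild type 11 did not enter the genotype difference of that fit. With 3 livers per genotype, members with SEs of 0.22 to 0.53 allow differences that the test cannot call.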
